A study of Mus musculus with 9 samples.

Results

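The 43 genes described here are antiviral genes that cells switch on in response to type I interferon, measured in 9 mouse lung libraries of total RNA. They were chosen by gene symbol from the deposited transcript table, 43 of 45777 genes, and the counts of each gene's transcripts were summed. All 43 were found, each under 1 gene identifier. All 43 also passed the filter on low counts that left 18716 genes for testing. The filter needs counts in only 3 libraries, so a gene could pass through 1 group alone.

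There were 3 groups of 3 libraries from male C57BL/6N mice, whose age is not given in the sources used here. EA-BN-H mice received lipopolysaccharide (LPS, a cell wall component of Gram-negative bacteria) at 0.5 mg/kg with cigarette smoke condensate (CSC) at 12.5 mg/kg through the nose on days 1, 6 and 13. They also took EA-BN, the ethyl acetate fraction of Boehmeria nivea leaves, at 200 mg/kg in 2% DMSO by mouth on days 1 to 14. COPD mice had the same LPS and CSC instillations with the 2% DMSO vehicle alone, and NC mice had PBS through the nose with that vehicle. Lungs were taken on day 15, so the COPD label stands for this short exposure. The comparisons ask how the exposure changed the lung (COPD against NC) and how EA-BN changed the exposed lung (EA-BN-H against COPD). The treated lungs were also set against NC, which shares libraries with the other two comparisons. The labels do not say whether a library came from 1 mouse, so p-values measure only the spread between these libraries.

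Interferons are secreted by cells that sense viral or bacterial material. Type I interferon binds the receptor made of Ifnar1 and Ifnar2, the kinases Jak1 and Tyk2 start a signal that reaches the nucleus, and a complex that includes Stat2 and Irf9 binds a short element, the interferon-stimulated response element (ISRE), in the promoters of responsive genes. Interferon gamma acts through its own receptor and a different element (GAS), and many of the 43 genes respond to it as well. Their products sense foreign RNA and DNA, degrade RNA, stop translation of viral messages, block entry and budding of virus, and attach the ubiquitin-like protein Isg15 to other proteins. In the lung, epithelial cells, macrophages and recruited leukocytes can all express them.

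The promoters of 4 members with large differences and of a near-identical neighbour are shown because they carry the ISRE core, written GAAANNGAAA and searched on both strands, where its reverse reads TTTCNNTTTC. Each line gives the 250 bases before the annotated start, read along the gene's strand from RefSeq on GRCm38.p6 (the mm10 build), with matches to the core in capitals.
Oas3: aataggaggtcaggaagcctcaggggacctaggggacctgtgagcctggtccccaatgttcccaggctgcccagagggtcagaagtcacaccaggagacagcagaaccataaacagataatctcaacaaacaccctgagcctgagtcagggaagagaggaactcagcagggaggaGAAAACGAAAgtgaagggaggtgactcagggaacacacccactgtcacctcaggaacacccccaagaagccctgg
Isg15: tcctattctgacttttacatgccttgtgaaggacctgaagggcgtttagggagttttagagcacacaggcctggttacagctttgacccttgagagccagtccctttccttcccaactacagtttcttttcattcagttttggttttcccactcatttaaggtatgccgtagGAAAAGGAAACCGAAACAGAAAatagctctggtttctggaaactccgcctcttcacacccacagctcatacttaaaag
Ifit1: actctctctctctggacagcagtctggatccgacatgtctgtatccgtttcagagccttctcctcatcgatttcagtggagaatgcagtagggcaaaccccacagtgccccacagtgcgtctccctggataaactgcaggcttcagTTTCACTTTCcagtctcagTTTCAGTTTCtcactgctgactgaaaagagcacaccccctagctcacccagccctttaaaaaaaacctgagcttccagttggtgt
Ifit3: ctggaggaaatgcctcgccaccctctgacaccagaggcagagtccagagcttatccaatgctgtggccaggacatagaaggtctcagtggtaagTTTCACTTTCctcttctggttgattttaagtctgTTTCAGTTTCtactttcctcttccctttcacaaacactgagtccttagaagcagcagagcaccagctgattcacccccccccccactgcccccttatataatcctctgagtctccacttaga
Ifit3b: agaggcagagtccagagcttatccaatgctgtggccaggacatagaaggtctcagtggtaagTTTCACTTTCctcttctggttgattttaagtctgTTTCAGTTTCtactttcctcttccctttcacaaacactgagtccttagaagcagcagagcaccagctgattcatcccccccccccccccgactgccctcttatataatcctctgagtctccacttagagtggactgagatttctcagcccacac
The Oas3 stretch is chr5:120777660-120777909 on the minus strand and the Isg15 stretch is chr4:156200819-156201068 on the minus strand. On the plus strand lie Ifit1 at chr19:34640639-34640888, Ifit3 at chr19:34583279-34583528 and Ifit3b at chr19:34607707-34607956. The Ifit3 and Ifit3b windows share an unbroken run of 169 bases that holds both of their matches. Isg15 has 3 overlapping matches in a single run.

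Over the whole window of 300 bases (250 before to 50 after the start), 33 of the 43 members had an entry, in 37 windows. Dhx58, Ifi27l2a, Mx1, Mx2, Oas2, Parp14, Parp9, Rtp4, Usp18 and Zbp1 had none. The core was present in 15 of the 33 members, or 45.45% (95% Wilson interval 29.8 to 62.0%), against 1079 of all 27025 genes with a window (3.99%). A longer form, GAAANNGAAACT, which contains the core, was found in 9 members (27.3%), against 0.303% of all genes. The GAS form TTCNNNGAA, which reads the same on both strands and can overlap the ISRE core, was found in 8 members (24.2%), against 9.55% of all genes. The members with a core had a median log2 difference between COPD and NC of 2.86, and the 18 without one had a median of 1.73. The ranges overlapped widely, from 0.87 to 5.53 with a core and from 0.20 to 3.66 without one. Whether the core bears on the size of the difference was not tested. A match is a run of letters in this window and not a measured binding site.

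**Figure D1:**
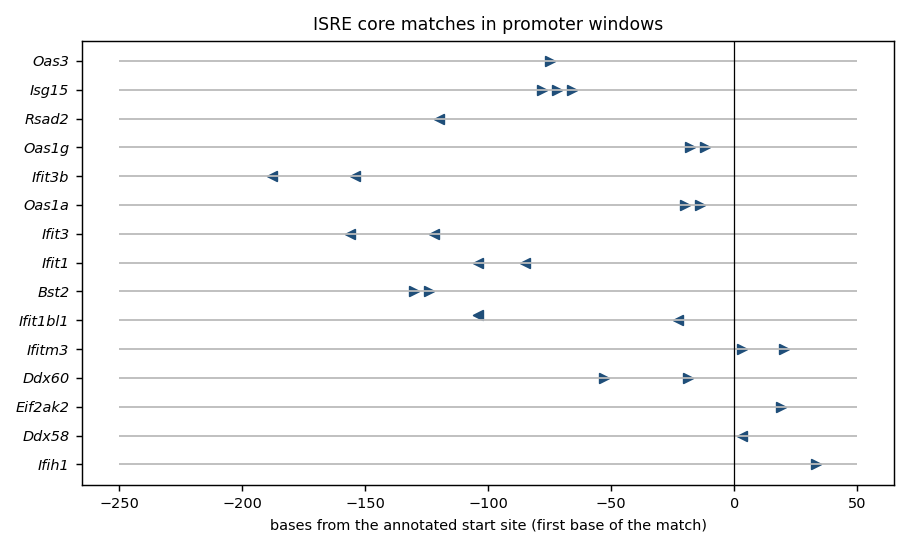
Positions of ISRE core matches in the promoter windows of the 15 members that have one, in bases from the annotated start, with the triangle pointing along the strand of the match and members ordered by their log2 difference in COPD against NC, largest at the top. Isg15 has 3 matches between 78 and 66 bases before the start, and both starts of Ifit1bl1 are drawn on 1 line.

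Total counts per library ran from 25232402 to 42156219, and 7SL RNA, a small non-coding RNA of the signal recognition particle, took 38.2 to 63.5% of them in EA-BN-H, 32.5 to 41.0% in COPD and 34.0 to 40.4% in NC. Counts on protein-coding messages, leaving out those encoded in mitochondria, numbered 8301248 to 16954770 in EA-BN-H, 12675653 to 17295294 in COPD and 12523809 to 21586214 in NC. The lowest was in EA-BN-H replicate 3. The 43 members together had 24040 to 149506 counts per library. Defining markers of lung were present, since 5 alveolar type 2 cell genes (Sftpc, Sftpa1, Sftpb, Abca3 and Lamp3) summed to 2409 to 3814 CPM in EA-BN-H, 3266 to 4625 CPM in COPD and 2741 to 3784 CPM in NC. CPM here are counts scaled to a common library size after TMM, a method that sets most genes equal between libraries. They are not divided by gene length.

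Nearly all of the 43 genes were higher in COPD than in NC lungs. Of the 43, 14 (32.6%) were called higher at an adjusted p under 0.05, where 1.53% of all genes tested were. At an unadjusted p under 0.05 with a log2 fold change of at least 1, 38 (88.4%) were higher, where 7.12% of all genes were. At an unadjusted p under 0.05 alone 40 (93%) were higher, against a background of 10%. In 41 of the 43 (95.3%), every COPD library lay above every NC library, which held for 14.3% of all genes. No member had a fitted difference below 0. The median log2 fold change of the members was 2.16, with a range of 0.20 to 5.53, beside a median of -0.02 over all genes tested. The 14 calls rest on several single libraries. No member was called without COPD replicate 1, COPD replicate 3 or any 1 of the NC replicates, where 0 or 1 of all genes were called. By contrast, 34 were called without EA-BN-H replicate 2, which enters this fit only through the shared estimate of the spread. Calls over all genes also rose there, to 996 from 299 in the full fit, so that rise is not particular to the members. In each of those fits at least 34 members stayed past the unadjusted p and the fold.

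**Figure D2:**
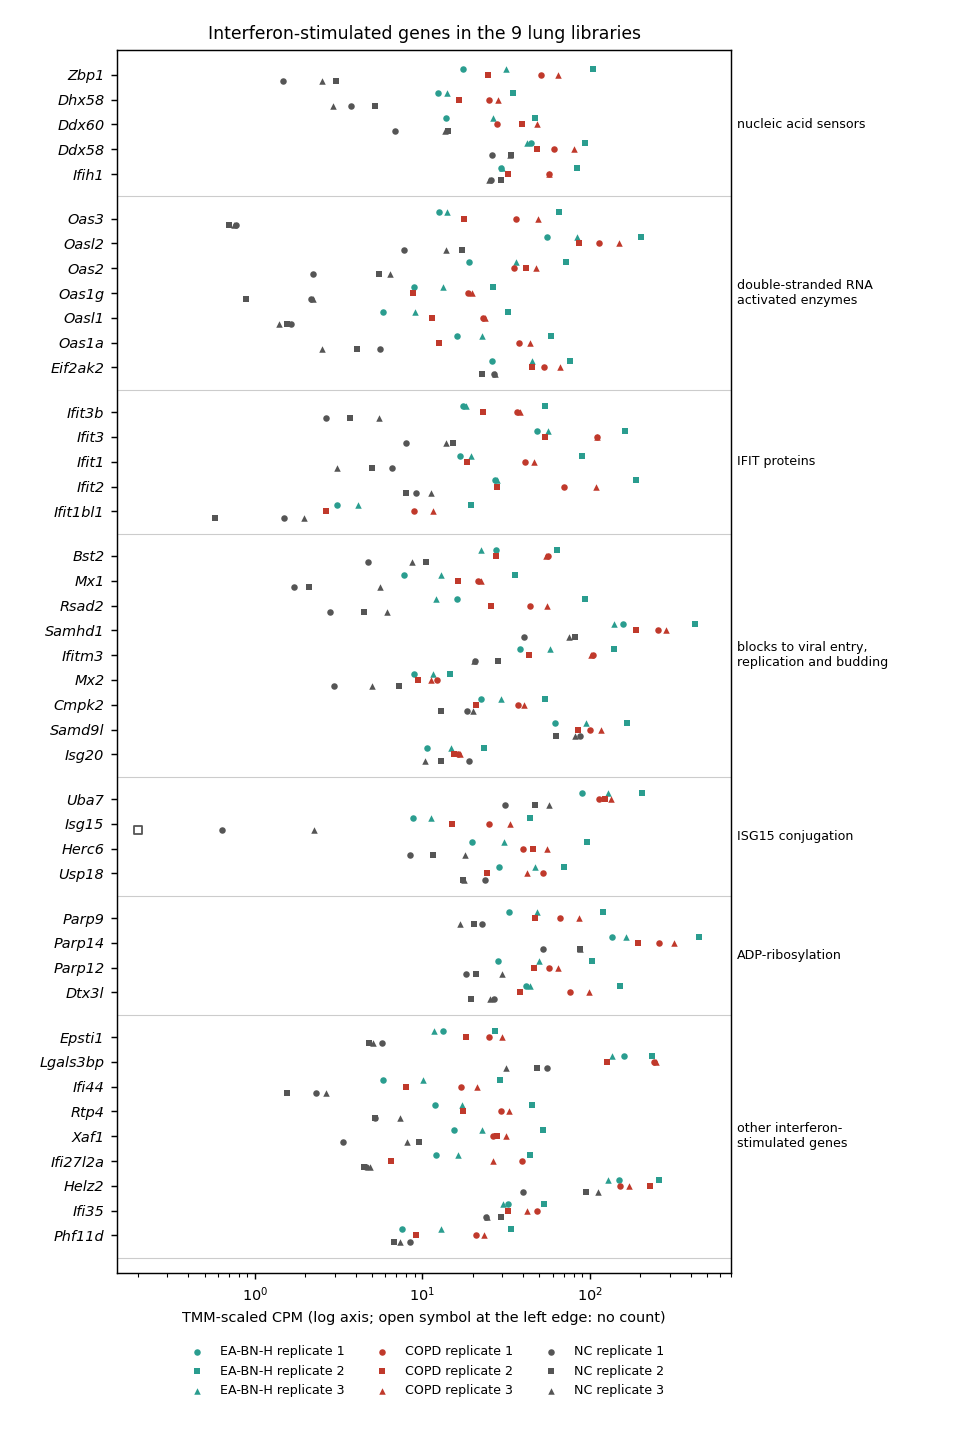
TMM-scaled CPM of the 43 genes in each of the 9 libraries on a log axis, grouped by role, with colours for groups and symbols for replicates. EA-BN-H replicate 2 (green squares) is the highest EA-BN-H library for all 43 genes, and the COPD and NC libraries do not overlap for 41.

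The role of enzymes activated by double-stranded RNA, in which the Oas-like genes are placed by family, had the largest differences as a role. The 2'-5' oligoadenylate synthetases make a short messenger, 2-5A, that switches on the ribonuclease Rnase L. That activity is not claimed here for the Oas-like genes Oasl1 and Oasl2. Of the 7 genes of this role 6 were called higher, with a median log2 fold change of 3.17. Oas3, which spans chr5:120753098-120777684 of mm10 beside Oas1a, Oas1g and Oas2, had 12.6, 65.3 and 14.0 CPM in EA-BN-H, 36.5, 17.8 and 48.9 CPM in COPD, and 0.768, 0.697 and 0.751 CPM in NC. The NC libraries were almost level, and every COPD library lay far above them. The log2 fold change of Oas3 in COPD against NC was 5.53 ± 0.74 (SE, edgeR adjusted p = 0.0235), or 46.3-fold. Oasl2, an Oas-like protein with ubiquitin-like domains, had 55.7, 203 and 84.3 CPM in EA-BN-H, 114, 86.2 and 150 CPM in COPD, and 7.81, 17.2 and 13.8 CPM in NC. COPD was above NC for Oasl2 by a log2 fold change of 3.18 ± 0.50 (SE, edgeR adjusted p = 0.0261). The other Oas and Oas-like genes called were Oasl1 (3.66), Oas1g (3.17), Oas2 (3.15) and Oas1a (2.95, all log2 fold changes in COPD against NC). Oas1a and Oas1g are close relatives, and reads they share could be split between them. Eif2ak2, the kinase PKR that halts translation, was the exception with a log2 fold change of 1.11 and an edgeR adjusted p of 0.139.

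Among the sensors of foreign nucleic acid, Zbp1 and Dhx58 were called higher. Zbp1 binds Z-form nucleic acid and can start necroptosis. It had 17.6, 104 and 31.6 CPM in EA-BN-H, 51.4, 24.8 and 64.3 CPM in COPD, and 1.47, 3.03 and 2.50 CPM in NC. The COPD and NC libraries did not overlap, and the log2 fold change was 4.33 ± 0.68 (SE, edgeR adjusted p = 0.0261). Dhx58 encodes LGP2, a regulator of the RNA sensors RIG-I and MDA5. It had 12.5, 34.6 and 14.0 CPM in EA-BN-H, 24.9, 16.6 and 28.4 CPM in COPD, and 3.73, 5.18 and 2.93 CPM in NC, a log2 fold change in COPD against NC of 2.56 ± 0.43 (SE, edgeR adjusted p = 0.0296). Of the remaining sensors, Ddx60, a helicase that aids RIG-I in human cells, had 13.9, 47.4 and 26.6 CPM in EA-BN-H, 27.9, 39.6 and 48.2 CPM in COPD, and 6.89, 14.2 and 13.6 CPM in NC. Ifih1, which encodes MDA5, had 29.4, 83.3 and 30.0 CPM in EA-BN-H, 56.8, 32.5 and 57.4 CPM in COPD, and 25.5, 29.7 and 25.1 CPM in NC. The COPD and NC libraries of Ddx60 and Ifih1 did not overlap, and neither gene was called. Ifih1 had a log2 fold change of 0.87 (95% interval -0.01 to 1.75, edgeR adjusted p = 0.332) and Ddx58, which encodes RIG-I, one of 1.03 (adjusted p = 0.153). Ddx60 had 1.74 (adjusted p = 0.0802).

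Some of the IFIT proteins bind viral RNA that lacks host cap marks. The 5 IFIT genes lie together on chromosome 19 between 34550550 and 34662981. Their log2 fold changes were alike, from 2.53 to 3.06, and 2 were called. Ifit3b had 17.5, 54.4 and 18.3 CPM in EA-BN-H, 36.8, 23.0 and 38.4 CPM in COPD, and 2.65, 3.70 and 5.50 CPM in NC. Ifit3 had 48.4, 162 and 56.6 CPM in EA-BN-H, 110, 54.2 and 111 CPM in COPD, and 7.98, 15.2 and 13.9 CPM in NC. Both had all COPD libraries above all NC libraries, and both had the same order of libraries within the EA-BN-H group. The log2 fold change in COPD against NC was 3.06 ± 0.49 for Ifit3b (SE, edgeR adjusted p = 0.0267) and 2.89 ± 0.51 for Ifit3 (adjusted p = 0.0335). The pair are near-identical copies, so how the counting shared reads between them bears on both values. Ifit1 (2.86), Ifit2 (2.87) and Ifit1bl1 (2.53) had edgeR adjusted p-values of 0.0631, 0.095 and 0.155, and Ifit1bl1 spans Ifit3b and Ifit1 on the map.

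Of the 9 genes whose products block viral entry, replication or budding, Bst2 was called. Bst2 encodes tetherin, which holds budding virions on the cell surface. It had 27.4, 63.9 and 22.3 CPM in EA-BN-H, 56.4, 27.5 and 54.7 CPM in COPD, and 4.74, 10.5 and 8.61 CPM in NC. The log2 fold change in COPD against NC was 2.54 ± 0.47 (SE, edgeR adjusted p = 0.0361). Mx1, a dynamin-like GTPase that traps viral components, had 7.72, 35.9 and 12.8 CPM in EA-BN-H, 21.5, 16.4 and 22.5 CPM in COPD, and 1.71, 2.09 and 5.58 CPM in NC. No library of COPD reached down to NC for Mx1, and the log2 fold change was 2.70 ± 0.61 (SE, edgeR adjusted p = 0.0579). Rsad2 encodes viperin, an enzyme that makes a chain-terminating nucleotide, and Cmpk2 next to it on chromosome 12 encodes a kinase that supplies its substrate. Their log2 fold changes were 3.22 (adjusted p = 0.0631) and 0.93 (adjusted p = 0.246). Samhd1, a dNTP hydrolase, had 1.89, Ifitm3, which blocks virus at the endosome, had 1.85, and Mx2 had 1.12, with edgeR adjusted p-values of 0.0667 to 0.138.

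The 2 members whose COPD and NC libraries overlapped belong to the same role. Isg20, an exonuclease that degrades RNA, had 10.7, 23.5 and 14.9 CPM in EA-BN-H, 16.4, 15.5 and 16.8 CPM in COPD, and 19.0, 13.0 and 10.4 CPM in NC. NC replicate 1 was above every COPD library, and the log2 fold change was 0.20 (95% interval -0.50 to 0.89, edgeR adjusted p = 0.832). Samd9l, a restriction factor for poxviruses, had 61.9, 168 and 94.5 CPM in EA-BN-H, 101, 85.3 and 118 CPM in COPD, and 88.0, 63.2 and 82.1 CPM in NC. Its log2 fold change was 0.38 (95% interval -0.35 to 1.11, adjusted p = 0.648). Both intervals lie below the median difference of the members, 2.16.

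Isg15 is the ubiquitin-like protein that is joined to other proteins by Uba7 as the first enzyme and, in mice, Herc6 as the ligase, and removed by Usp18. Isg15 had 8.80, 43.8 and 11.3 CPM in EA-BN-H, 24.9, 15.1 and 33.5 CPM in COPD, and 0.636, 0 and 2.25 CPM in NC. It had no count in NC replicate 2, where 3 counts would be 0.0909 CPM. Its log2 fold change of 4.71 ± 1.06 (SE) in COPD against NC missed the threshold (edgeR adjusted p = 0.0592), and it ran from 4.11 without NC replicate 2 to 6.15 without NC replicate 3. Uba7 had 89.9, 205 and 129 CPM in EA-BN-H, 113, 124 and 135 CPM in COPD, and 31.0, 47.2 and 57.1 CPM in NC. The COPD libraries of Uba7 were close to one another and above NC, with a log2 fold change of 1.46 ± 0.32 (SE, edgeR adjusted p = 0.056). Usp18, which also blunts signalling at Ifnar2, had 28.8, 70.6 and 47.3 CPM in EA-BN-H, 52.8, 24.3 and 42.1 CPM in COPD, and 23.8, 17.5 and 17.7 CPM in NC. Usp18 had a log2 fold change of 1.02 and Herc6 one of 1.89, with edgeR adjusted p-values of 0.201 and 0.106, so no gene of this role was called.

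The ADP-ribosylation genes act together in part, since Parp9 and the ubiquitin ligase Dtx3l form a complex. Parp9 and Dtx3l lie head to head on chromosome 16 and overlap on the map between 35938470 and 35939027, with Parp14 nearby. Parp14 had 136, 446 and 166 CPM in EA-BN-H, 258, 194 and 319 CPM in COPD, and 52.7, 87.2 and 87.8 CPM in NC. Parp9 had 32.9, 119 and 48.5 CPM in EA-BN-H, 66.7, 47.1 and 86.7 CPM in COPD, and 22.7, 20.5 and 16.7 CPM in NC. All 4 genes had COPD above NC in every library and passed the unadjusted threshold, and none was called. Their log2 fold changes were 1.76 for Parp14, 1.74 for Parp9, 1.58 for Dtx3l and 1.28 for Parp12, with edgeR adjusted p-values of 0.0745 to 0.164.

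Among the other interferon-stimulated genes, Epsti1, Lgals3bp and Ifi44 were called. Epsti1, an interferon-induced gene also expressed in macrophages, had 13.2, 27.2 and 11.7 CPM in EA-BN-H, 25.1, 18.3 and 29.9 CPM in COPD, and 5.77, 4.79 and 5.08 CPM in NC. Lgals3bp, a secreted glycoprotein that binds galectins, had 161, 236 and 136 CPM in EA-BN-H, 244, 126 and 249 CPM in COPD, and 55.7, 48.5 and 31.6 CPM in NC. Every COPD library was above every NC library for both genes, with COPD replicate 2 the lowest of its group. The log2 fold changes in COPD against NC were 2.23 ± 0.34 for Epsti1 and 2.19 ± 0.35 for Lgals3bp (SE, edgeR adjusted p = 0.0261 for each), and Ifi44 had 2.83 (adjusted p = 0.0485). Ifi35, which binds Nmi, had 32.5, 53.6 and 30.2 CPM in EA-BN-H, 48.2, 32.3 and 42.4 CPM in COPD, and 24.0, 29.4 and 24.4 CPM in NC. Its log2 fold change of 0.66 (95% interval 0.09 to 1.23, edgeR adjusted p = 0.246) was the smallest of this role. Ifi27l2a, Rtp4, Xaf1, Phf11d and Helz2 ran from 1.16 to 2.38 with edgeR adjusted p-values of 0.0556 to 0.28.

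Levels per length differed widely before exposure. By TPM, which divides by transcript length and by the library, Ifitm3 had the highest NC level at 24.0 TPM, followed by Lgals3bp at 13.9 TPM and Ifi35 at 12.9 TPM. The lowest NC levels were those of Oas3 at 0.104 TPM, Ifit1bl1 at 0.321 TPM and Oasl1 at 0.475 TPM. In COPD, Ifitm3 at 93.0 TPM and Lgals3bp at 67.9 TPM again led, while Oas3 averaged 5.68 TPM. The TPM of every gene are lowered by 7SL RNA, which took 74.6 to 89.4% of a library's TPM, so these levels order the genes and are not compared between groups.

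**Figure D3:**
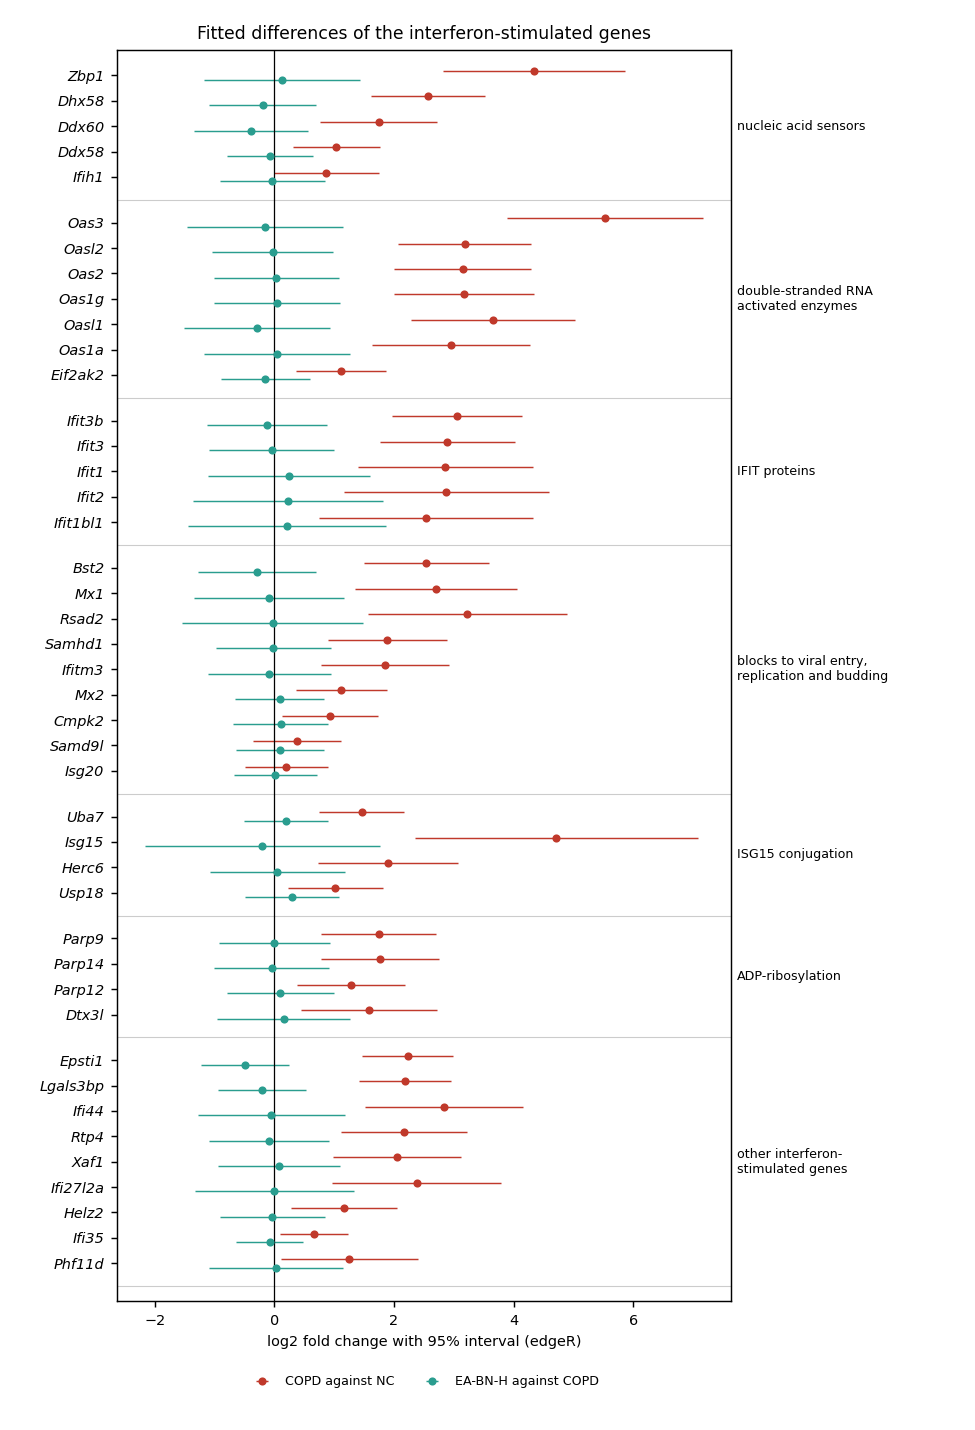
Fitted log2 fold changes of the 43 genes with 95% intervals from edgeR, for EA-BN-H against COPD (green) and COPD against NC (red), grouped by role. The COPD against NC points run from 0.20 to 5.53 and the EA-BN-H against COPD points from -0.49 to 0.30, and every interval of EA-BN-H against COPD includes 0.

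Between EA-BN-H and COPD lungs no member passed any threshold. None of the 43 was called at an adjusted p under 0.05, as for all genes (0% called). None was lower at an unadjusted p under 0.05 (background 0.78%) and none was higher (background 0.801%) with edgeR, and DESeq2 also gave 0 members at that level. In no member were all EA-BN-H libraries below all COPD libraries, which held for 3.32% of all genes, and in none were they all above, which held for 3%. The median log2 fold change was -0.03, with a range of -0.49 to 0.30, and 24 of the 43 were below 0. The members with the smallest p were Epsti1 at -0.49 (95% interval -1.22 to 0.24), Ddx60 at -0.40 (-1.35 to 0.56), Usp18 at 0.30 (-0.49 to 1.08) and Lgals3bp at -0.21 (-0.95 to 0.52). The sign of Usp18 turned with library totals, with TPM and without EA-BN-H replicate 2. The intervals differed in width. Among the wider ones, that of Oas3 ran from -1.47 to 1.14 and that of Isg15 from -2.16 to 1.76 on the log2 scale. A doubling or halving of these genes was not detectable at this spread. The narrowest interval, that of Ifi35, ran from -0.64 to 0.49 in this fit.

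Among the EA-BN-H libraries, replicate 2 was the highest for all 43 members, where 43% of all genes had it highest. Replicate 1 was the lowest for 35 members (and for 36.1% of all genes) and replicate 3 for the other 8 (and for 30.6% of all genes). The summed level of the 43 members was 1522, 4445 and 1802 CPM in EA-BN-H, 2746, 1955 and 3166 CPM in COPD, and 671, 823 and 859 CPM in NC. EA-BN-H replicate 2 thus lay above every COPD library in the sum, and it did so for 40 of the 43 single members. The exceptions were Ddx60, Epsti1 and Lgals3bp. EA-BN-H replicate 1 lay below every COPD library for 34 members, replicate 3 for 22, and both did for 21. The shares of all genes that lay outside the COPD range in a single library were not counted. These counts, and the 40 for replicate 2, therefore describe the members alone and cannot be set against the other genes. COPD split less: replicate 2 was the lowest COPD library for 37 members, where 44.5% of all genes had it lowest. COPD replicate 3 was the highest for 36 members, where 29.3% of all genes had it highest. The median coefficient of variation of the members was 68.4% in EA-BN-H, 29.6% in COPD and 28.9% in NC, beside medians over all genes of 29.1%, 24.1% and 28.5%.

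**Figure D4:**
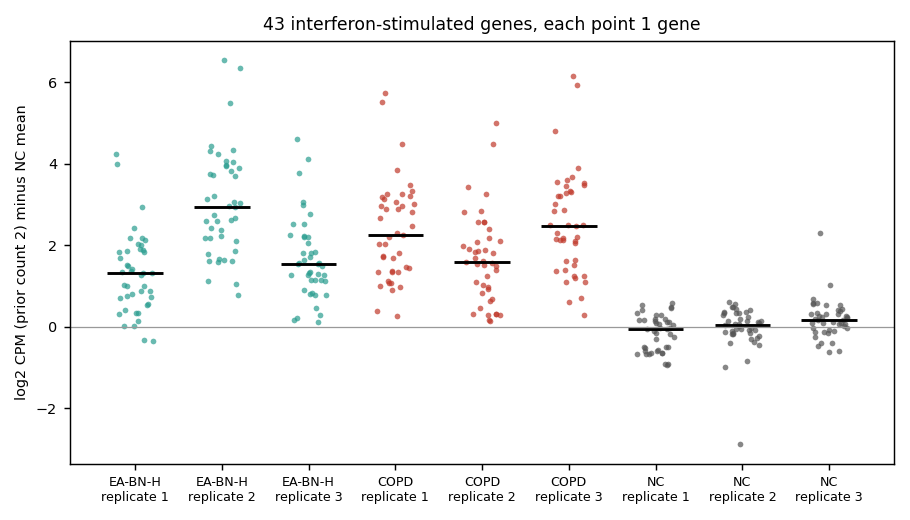
Each point is 1 of the 43 genes in 1 library, as log2 CPM (prior count 2) minus the gene's mean over the NC libraries, and bars mark the medians. The medians are 1.32, 2.93 and 1.55 in EA-BN-H replicates 1, 2 and 3 and 2.26, 1.59 and 2.48 in COPD replicates 1, 2 and 3, so EA-BN-H replicates 1 and 3 sit with COPD replicate 2 below the other exposed libraries.

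The comparison of EA-BN-H with COPD therefore depended on single libraries, and most on EA-BN-H replicate 2. Without it, all 43 members had a fitted log2 fold change below 0, with a median of -0.77, and 19 of the 43 (44.2%) were lower at an unadjusted p under 0.05, where 4.71% of all genes were. In that fit 4 members also passed the fold of 1 on the log2 scale. They were Rsad2 at -1.57 ± 0.40, Oasl1 at -1.38 ± 0.37, Oas3 at -1.37 ± 0.37 and Ifit2 at -1.33 ± 0.46 (SE). No member was called after adjustment, and none of all 19397 genes tested in that fit was. The smallest adjusted p with edgeR was 0.518, both among the members and over all genes. Leaving out EA-BN-H replicate 1 instead gave a median of 0.28 with 4 members below 0, and leaving out replicate 3 gave 0.19 with 6 below 0. The median also moved with the COPD libraries. It was -0.22 with 37 members below 0 without COPD replicate 2, and 0.14 with 9 below 0 without COPD replicate 3. Without COPD replicate 1 it was 0.02 with 18 below 0. Leaving out EA-BN-H replicate 2 was 1 of 9 fits that each leave out a library, and no label sets EA-BN-H replicate 2 apart. That fit is singled out here because replicate 2 was the highest EA-BN-H library for all 43 members. Leaving it out therefore lowers the EA-BN-H level of every member, and the members moved together by library. The 43 signs and the 19 members past the unadjusted p are thus not separate results and are no test of EA-BN.

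EA-BN-H lungs were also above NC lungs for most members, a comparison that shares its NC libraries with COPD against NC. At an adjusted p under 0.05, 13 of the 43 (30.2%) were higher, where 1.04% of all genes were. Past an unadjusted p of 0.05 and a log2 fold change of 1 there were 37 (86%), against 6.66% of all genes, and past the p alone 40, against 9.33%. In 36 members (83.7%) every EA-BN-H library lay above every NC library, which held for 11.3% of all genes. The median log2 fold change was 1.97, with a range of 0.21 to 5.37. Oas3 had 5.37 ± 0.73 (SE, edgeR adjusted p = 0.0363), Zbp1 had 4.46 ± 0.69 (adjusted p = 0.0388) and Isg15 had 4.51 ± 1.06 (adjusted p = 0.0711). Ddx60 had 1.35 and an overlap with NC, since EA-BN-H replicate 1, at 13.9 CPM, lay below NC replicate 2, at 14.2 CPM. Without EA-BN-H replicate 2 the median was 1.29, 9 members were called and 32 passed the unadjusted p. Of all 19397 genes tested in that fit, 107 were called and 2086 passed the unadjusted p. No member was called without COPD replicate 1, COPD replicate 3 or any 1 of the NC replicates. In those fits 0 or 1 of all genes were called, so that loss is not particular to the members.

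The genes upstream of these members were read from lists of the interferon pathway. Of the 10 interferon genes on the list, only Ifng, the gene of interferon gamma, had enough counts to test. Interferon genes outside this list were not examined here. Ifng had 0, 8.86 and 1.66 CPM in EA-BN-H, 3.05, 0.847 and 2.32 CPM in COPD, and no count in any NC library. Against a floor of 3 counts per NC library (on average 0.0880 CPM) its mean was at least 39.9-fold higher in EA-BN-H and at least 23.5-fold higher in COPD. EA-BN-H replicate 1 had no count either, and without EA-BN-H replicate 2 the EA-BN-H mean was 0.829 CPM, at least 9.42-fold higher. Ifng was called in neither comparison (edgeR adjusted p = 0.106 in EA-BN-H against NC and 0.119 in COPD against NC). Ifnb1, the gene of interferon beta, had 12 counts, all in EA-BN-H replicate 2, where Ifnk had 2. Ifna1, Ifna2, Ifna4, Ifna5, Ifne, Ifnl2 and Ifnl3 had none in any library, which allows up to 3 counts, or 0.0658 to 0.160 CPM. Lungs were taken 2 days after the last instillation, and earlier times were not sampled.

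Of the 6 receptor genes none was called in COPD against NC, and Ifngr2 (1.13) and Ifnar2 (1.04) passed the unadjusted p with the fold. Among the signal transducers, Stat2 had 74.0, 178 and 101 CPM in EA-BN-H, 97.4, 120 and 114 CPM in COPD, and 17.1, 33.0 and 34.8 CPM in NC. All of its COPD libraries lay above all of its NC libraries, with a log2 fold change of 1.97 ± 0.36 (SE, edgeR adjusted p = 0.0361). For Irf9 the log2 fold change was 1.39 (edgeR adjusted p = 0.0723). Among 13 genes that act in the induction of interferon, Irf7, the factor that amplifies interferon gene transcription, had 44.2, 166 and 62.6 CPM in EA-BN-H, 124, 63.9 and 143 CPM in COPD, and 4.39, 6.39 and 5.97 CPM in NC. Irf7 (4.31, adjusted p = 0.0235) and Irf5 (2.30, adjusted p = 0.0361) were called higher, and 7 of the 13 passed the unadjusted p with the fold, Tlr9 (2.56) and Cgas (1.92) among them. None of the 6 inhibitors was called, and 4 passed the unadjusted p with the fold, which were Socs1 (2.63), Ptpn6 (2.00), Socs3 (1.80) and the member Usp18. Of 10 genes that respond mainly to interferon gamma, 6 were called higher and all 10 passed the unadjusted p with the fold. Igtp, an immunity-related GTPase, had 63.3, 333 and 92.1 CPM in EA-BN-H, 144, 72.7 and 162 CPM in COPD, and 6.69, 9.33 and 11.8 CPM in NC. No gene of these lists was called in EA-BN-H against COPD.

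Markers of monocytes and recruited macrophages were among the lists that were high in the exposed libraries where the members were high. All 8 passed the unadjusted p with the fold in COPD against NC, and 5 of 8 were called. Their summed level was 169, 635 and 149 CPM in EA-BN-H, 437, 182 and 508 CPM in COPD, and 40.7, 48.3 and 48.8 CPM in NC. The same libraries, EA-BN-H replicate 2 and COPD replicates 1 and 3, were high for these markers and for the members. They were also high for the T and NK cell markers and the interferon-gamma genes. The latter summed to 491, 3009 and 690 CPM in EA-BN-H, 1280, 621 and 1482 CPM in COPD, and 80.3, 119 and 157 CPM in NC. Fcgr1 is on both that list and the monocyte list. The monocyte sum was higher in EA-BN-H replicate 1 than in replicate 3, the reverse of the members' sum. Neutrophil markers summed to 41.6, 235 and 23.8 CPM in EA-BN-H, 55.6, 71.4 and 87.9 CPM in COPD, and 4.98, 16.8 and 16.3 CPM in NC. Their COPD sum was lowest in replicate 1, but Csf3r alone had 38.9, 60.3 and 66.3 CPM of it. S100a8, S100a9 and Cxcr2 were lowest in COPD replicate 2, as the members' sum was, and Retnlg in COPD replicate 3. None of the 5 neutrophil markers tested was called. The unadjusted p with the fold was passed by 4 in EA-BN-H against NC and by 1 (Csf3r) in COPD against NC. Those 4 were highest in EA-BN-H replicate 2, and S100a8 had 0.787, 24.3 and 1.55 CPM in EA-BN-H beside 0.855, 0.758 and 1.00 CPM in NC. Every EA-BN-H library lay above every NC library for only 1 of the 5, and every COPD library did so for 4. The defining markers Ly6g, Ngp and Camp were at no more than 0.654 CPM (Camp in EA-BN-H replicate 2) in any library. T and NK cell markers summed to 13.6, 50.8 and 20.7 CPM in EA-BN-H, 40.2, 23.2 and 52.7 CPM in COPD, and 9.65, 14.5 and 15.8 CPM in NC, with 0 of 8 called, 1 past the unadjusted p with the fold in EA-BN-H against NC and 4 in COPD against NC. Of the 6 listed genes for plasmacytoid dendritic cells, potent makers of type I interferon, Tcf4, which other lung cells also express, had 100 to 129 CPM in EA-BN-H, 112 to 149 CPM in COPD and 105 to 170 CPM in NC. The other 5 were low, the highest being Siglech at 5.79 CPM in COPD replicate 2, and 0 of 5 tested were called. No listed marker of alveolar macrophages, B cells, epithelium, endothelium or fibroblasts was called in any comparison. At the unadjusted p with the fold in COPD against NC, 2 of 6 alveolar macrophage markers (Marco at 1.99, and Chil3) and 1 of 4 fibroblast markers (Col1a1 at 1.35) were higher, and Scgb1a1 of club cells was lower (-1.46). In EA-BN-H against NC, 1 alveolar macrophage marker was higher and 1 lower by that rule. The part of these cells in the members' levels was not tested, and in bulk lung RNA more cells of a type and more RNA per cell cannot be told apart.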

How the data were processed

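Lung total RNA was sequenced in 9 libraries. Each of 129299 RefSeq transcripts (mm10) has a whole-number estimated count beside FPKM and TPM values in every library. The estimated counts deposited by the authors carry no normalization, while their deposited FPKM (not used in any result here) and TPM were scaled by transcript length and library. Tools in the submitters' processing notes were Trimmomatic 0.38 for trimming, HISAT2 2.1.0 for alignment, StringTie 2.1.3b and DESeq2, and the paper names HTSeq. Per the labels the kit was stranded and the paired reads had 101 bp, but whether counting used strand is not given in the sources used here, so reads of overlapping genes may be shared.

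Counts were summed by gene identifier. Genes were filtered with filterByExpr of edgeR, scaled by TMM, and tested by the edgeR quasi-likelihood test with robust spread on all 9 libraries in 1 fit (common biological coefficient of variation 0.438), with Benjamini-Hochberg adjustment over all 18716 genes. Fold thresholds and the unadjusted p of 0.05 follow the paper. Versions were DESeq2 1.42.0, limma 3.58.1 and edgeR 4.0.16 under R 4.3.3, and the test was checked on simulated data. Values in every library are given for the 2 members of each role with the smallest p and the 4 with the smallest difference in COPD against NC, and the 4 with the smallest p in EA-BN-H against COPD. Up to 4 genes of each pathway list were taken by smallest p, and Igtp is given as the first of its list. A gene of the pathway lists is not reported here. The members, lists and rules were chosen with earlier results of these data known. Depth limits are given as 3 counts and the intervals of promoter shares as Wilson intervals, which cover counting error only. The smallest two-sided p of an exact permutation test on groups of 3 is 0.10, so none was used. Promoters came from RefSeq (GRCm38.p6). Alternatives were DESeq2 (fold changes as fitted or shrunken), size factors by RLE, library totals, leaving out 7SL genes, no filter, at least 10 counts, only the groups compared, a replicate block, spread without the robust option, limma on log2 TPM (pseudocount 0.1), each library left out, and another promoter window and motif.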

Additional observations from a re-analysis of the deposited data

How the results depend on the processing

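All members kept a fitted difference above 0 in COPD against NC under each alternative run, and the number called there changed most. The table-wide calls (299 genes, 14 members) were 1405 genes and 35 members with DESeq2, shrunken or not, 724 genes and 31 members with only the groups compared, 95 genes with library totals, and 0 genes and 0 members with the replicate block. Leaving out 1 library gave 0 to 996 genes and 0 to 34 members. The median member fell to 1.59 with shrunken fold changes.

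In EA-BN-H against COPD (0 genes called), DESeq2, shrunken or not, called 3 genes and no member. With limma on log2 TPM 1 member passed the unadjusted p with the fold and the member median was -0.95, and leaving out 1 library gave 0 to 4 such members. Usp18 turned to -0.0647 with library totals, -0.49 with limma on log2 TPM and -0.066 without EA-BN-H replicate 2 (up to 0.57 without another library). Library totals moved the median of all genes by -0.41 and TPM by -0.70, and leaving out 1 library moved the member median between -0.77 and 0.28.

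In EA-BN-H against NC (211 genes, 13 members called), DESeq2, shrunken or not, called 1297 genes and 34 members, library totals 5 genes and 0 members, limma on log2 TPM 11 genes and 0 members, and only the groups compared and the replicate block 0 of each. Leaving out 1 library gave 0 to 419 genes and 0 to 19 members. With limma on log2 TPM 18 members passed the unadjusted p with the fold, where TPM moved the median of all genes by -0.59 and library totals by -0.38. Isg20 turned to -0.10 with library totals, -0.53 with TPM and -0.15 without EA-BN-H replicate 2 (up to 0.49 without another library), and with TPM Samd9l turned to -0.33, Ifi35 to -0.16 and Ifih1 to -0.051. The longer promoter motif lowered the share to 27.27%. The spread without the robust option was added after seeing the data. The causes of these changes were not tested.

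No label says that replicate numbers pair the libraries, and the 9 residual correlations of same-numbered libraries ran from -0.243 to 0.127, so the replicate block was not read as a pairing. The simulated data had no difference shared by the genes of a library.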
